A study of Homo sapiens with 40 samples.

Results

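MYC and 9 genes of the dimerization network around its partner MAX were followed after blockade of the mevalonate pathway in MDA-MB-231, an invasive breast cancer line of human origin that lacks hormone receptors and HER2. The 10 genes were MYC, MYCN, MAX, MXD1, MXD3, MXD4, MXI1, MNT, MGA and MLX, out of 18417 genes with a value, and they were chosen by symbol, each with 1 probe set of its own. Fluvastatin is a statin that inhibits HMG-CoA reductase, and zoledronate is a nitrogen-containing bisphosphonate that inhibits farnesyl diphosphate synthase further down the same pathway. RNA was measured on 40 arrays in 10 groups of 4 independent replicates. Lot I held mock-treated cells, cells with 30 µM zoledronate and cells with 2 µM fluvastatin, each at 12 h and 24 h. Lot II held mock-treated cells and cells with 30 µM zoledronate at 48 h, and mock-treated cells and cells with 100 µM zoledronate at 24 h. Per the design text, 2 µM and 30 µM were IC50 doses of a longer exposure, and treated and mock-treated cells of a replicate were paired by day.

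MYC is a transcription factor that binds DNA as a dimer with MAX, mostly at E-boxes, and raises genes of ribosome production, nucleotide synthesis and cell growth. The MXD proteins (MXD1, MXD3, MXD4 and MXI1), MNT and MGA also pair with MAX, bind the same sites and repress them, while MLX is the MAX-like partner of the glucose-sensing factors MLXIP and MLXIPL. MYC protein and mRNA both turn over quickly, and MYC is commonly amplified or highly expressed in triple-negative breast cancer.

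Values are log2 signals, a difference is treated minus mock-treated cells of the same replicate on that log2 scale, ± is the standard error of the fit unless SD is named, and a gene rose or fell where its limma adjusted p over all genes was under 0.05. The array medians lay between 6.19 and 6.33. The cell line's markers VIM, CD44, AXL, CAV1, MET and EGFR had mean values at percentiles 86.2 to 99.6 of all genes, whereas ESR1, PGR, CDH1 and the leukocyte marker PTPRC lay at percentiles 3.4 to 19.1. The endothelial marker PECAM1 lay at percentile 33.5 and EPCAM at percentile 68.2. Mock-treated cells of the lots differed at 24 h in 3158 genes (1934, 1499 and 1334 without replicate 1, 2 and 3). Effects of 48 h and of 100 µM, measured in lot II, were therefore tested against those of lot I only as differences of paired effects. In these differences lot cannot be told apart from time or dose. Raw signals of the lots are set side by side only as a description.

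MYC mRNA was lower after fluvastatin at both times, after 48 h of 30 µM zoledronate and, most of all among the 6 treatments, after 100 µM zoledronate, and it did not pass the test after 12 h or 24 h of 30 µM zoledronate. In RNA of whole cultures a lower level in every cell and a lower level in a share of the cells cannot be told apart. In mock-treated cells of lot I it was measured at 10.83, 10.62, 10.52 and 10.66 at 12 h and at 10.95, 10.56, 10.51 and 10.62 at 24 h, replicates 1 to 4 in order. The same cells with fluvastatin gave 10.04, 10.24, 10.34 and 10.25 at 12 h and 9.81, 10.28, 9.90 and 10.01 at 24 h. All fluvastatin arrays thus lay below all mock-treated arrays of their time, as in 370 of 18417 genes at 12 h and 700 at 24 h. Zoledronate at 30 µM gave 10.81, 10.80, 10.65 and 10.57 at 12 h and 10.82, 10.50, 10.42 and 10.68 at 24 h, which overlapped the mock-treated values at both times.

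In lot II the mock-treated cells gave 10.53, 10.62, 10.56 and 10.58 at 24 h, and the cells with 100 µM zoledronate 8.95, 9.01, 8.91 and 8.81. These were the 4 lowest MYC values of the 40 arrays, and 3212 genes had all arrays with 100 µM below all mock-treated ones. At 48 h the mock-treated cells gave 10.54, 10.85, 11.02 and 10.98 and the cells with 30 µM zoledronate 9.99, 10.39, 10.41 and 10.26, so that every treated array was below every mock-treated one, as in 801 genes.

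**Figure D1:**
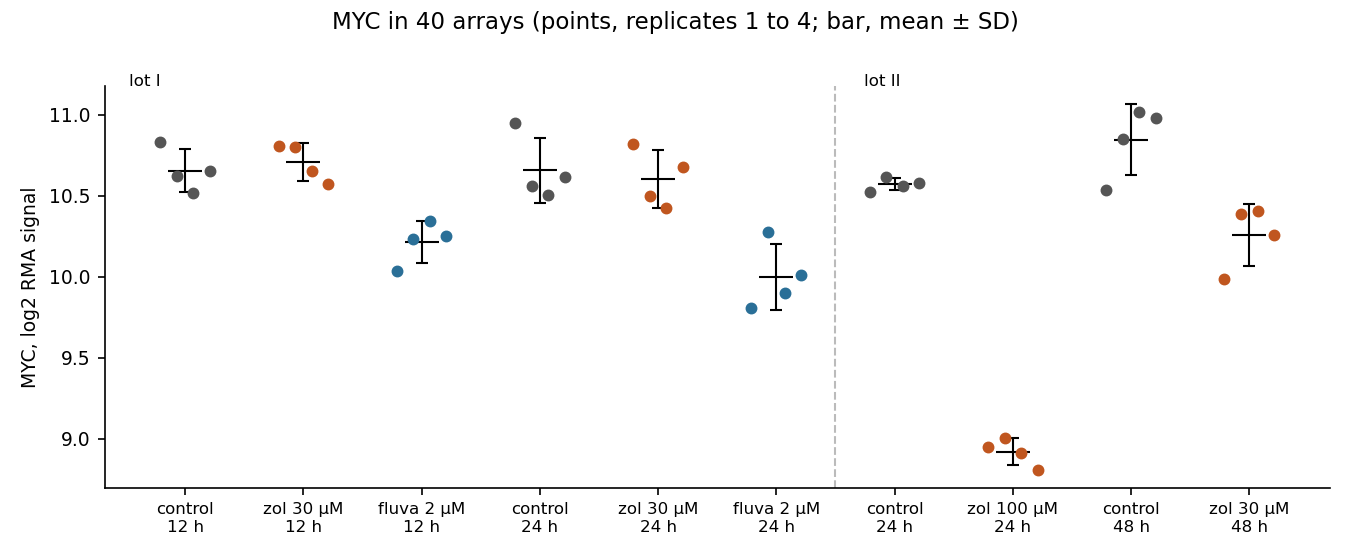
MYC in each of the 40 arrays, as log2 signal (vertical axis) by treatment and time (horizontal axis), lot I left and lot II right of the dashed line. Points are replicates 1 to 4 from left to right and bars the mean ± SD of 4 arrays. The 100 µM zoledronate arrays sit between 8.81 and 9.01, below all others.

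MYC fell by 0.44 ± 0.10 after 12 h of fluvastatin (adjusted p = 0.0397) and by 0.66 ± 0.10 after 24 h (adjusted p = 0.000365). Across the 4 pairs its difference ran from -0.80 to -0.17 at 12 h and from -1.14 to -0.29 at 24 h, with replicate 1 the lowest at each time. The 12 h call was lost without any 1 of the 4 replicate pairs (adjusted p from 0.052 to 0.402), without the replicate block (0.0943) and when only the arrays compared were fitted (0.172). The 24 h call was lost only in the last of these fits (0.0866). The effect at 24 h did not differ past the threshold from that at 12 h (difference of effects -0.22, 95% interval -0.52 to 0.08).

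With 30 µM zoledronate the MYC difference was 0.05 at 12 h (95% interval -0.16 to 0.26) and -0.05 at 24 h (-0.26 to 0.16). After 48 h of the same dose MYC fell by 0.59 ± 0.10 (adjusted p = 0.00121), with pairs between -0.72 and -0.46. The 48 h effect was lower than the 24 h effect by a difference of -0.53 ± 0.14, which did not pass (adjusted p = 0.0893) and did with the dimmest genes removed before adjustment (0.0492). The 48 h call itself was lost when only the 48 h arrays were fitted (adjusted p = 0.0995).

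With 100 µM zoledronate for 24 h MYC fell by 1.65 ± 0.10, or 3.14-fold (adjusted p = 1.02e-10), and the 4 pairs lay between -1.77 and -1.58. Only 29 of the 18417 genes had a lower difference. The effect was lower by 1.60 ± 0.14 than that of 30 µM at the same time (adjusted p = 1.87e-07), and lower by 0.99 ± 0.14 than that of fluvastatin at 24 h (adjusted p = 0.00025). At matched times fluvastatin cells were also below 30 µM zoledronate cells, by 0.49 ± 0.10 at 12 h (adjusted p = 0.0237, lost without any 1 replicate, up to 0.248, without the block at 0.0776 and with only the arrays compared at 0.114) and by 0.61 ± 0.10 at 24 h (adjusted p = 0.00125, 0.112 with only the arrays compared). Fluvastatin and zoledronate cells of lot I were set against the same mock-treated arrays.

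Group means of both lots were ordered on the raw signal, as a description without adjustment for lot. MYC was lowest with 100 µM zoledronate at 24 h (8.92 ± 0.08, SD, n = 4), followed by fluvastatin at 24 h (10.00 ± 0.20), fluvastatin at 12 h (10.22 ± 0.13) and 30 µM zoledronate at 48 h (10.26 ± 0.19). Arrays of these last 3 groups overlapped from each to the next, but not with 100 µM zoledronate below or with the group above. The other 6 groups, mock-treated cells and 30 µM zoledronate at 12 h and 24 h, had means from 10.57 to 10.85, and arrays of each overlapped those of the next. Among mock-treated cells MYC differed by 0.00 between 24 h and 12 h in lot I, by 0.28 between 48 h and 24 h in lot II (adjusted p = 0.249) and by -0.09 between lots at 24 h (adjusted p = 0.629). The mean value of MYC over all arrays was at percentile 95 of all genes.

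MYCN, the MYC paralog of neural tissue and neuroblastoma, had a mean value at percentile 18.9, and no array exceeded 5.38. Its 6 differences ran from -0.11 to 0.15 and none passed. MAX, the shared partner, had group means from 7.93 to 8.35. Its largest difference was -0.16 ± 0.07 with 100 µM zoledronate, below 0 in 4 of 4 pairs, which missed the threshold (adjusted p = 0.0727) and passed it with the dimmest genes removed (0.0429). The other 5 differences of MAX lay between -0.07 and 0.01.

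Of the 10 genes, 1 passed the test after 12 h of fluvastatin, against 0.874% of all genes, and 3 after 24 h, against 10.5%. None passed after 12 h or 24 h of 30 µM zoledronate, where 0% of all genes passed in limma (511 and 866 genes had an unadjusted p under 0.05), and 1 passed after 48 h, against 7.59%. With 100 µM zoledronate 5 passed, against 32% of all genes. MYC was the only one of the 10 that fell in any treatment, and all rises were in genes of MAX-binding repressors. Between fluvastatin and 30 µM zoledronate 1 of 10 differed at 12 h (0.738% of all genes) and 3 at 24 h (7.23%).

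**Figure D2:**
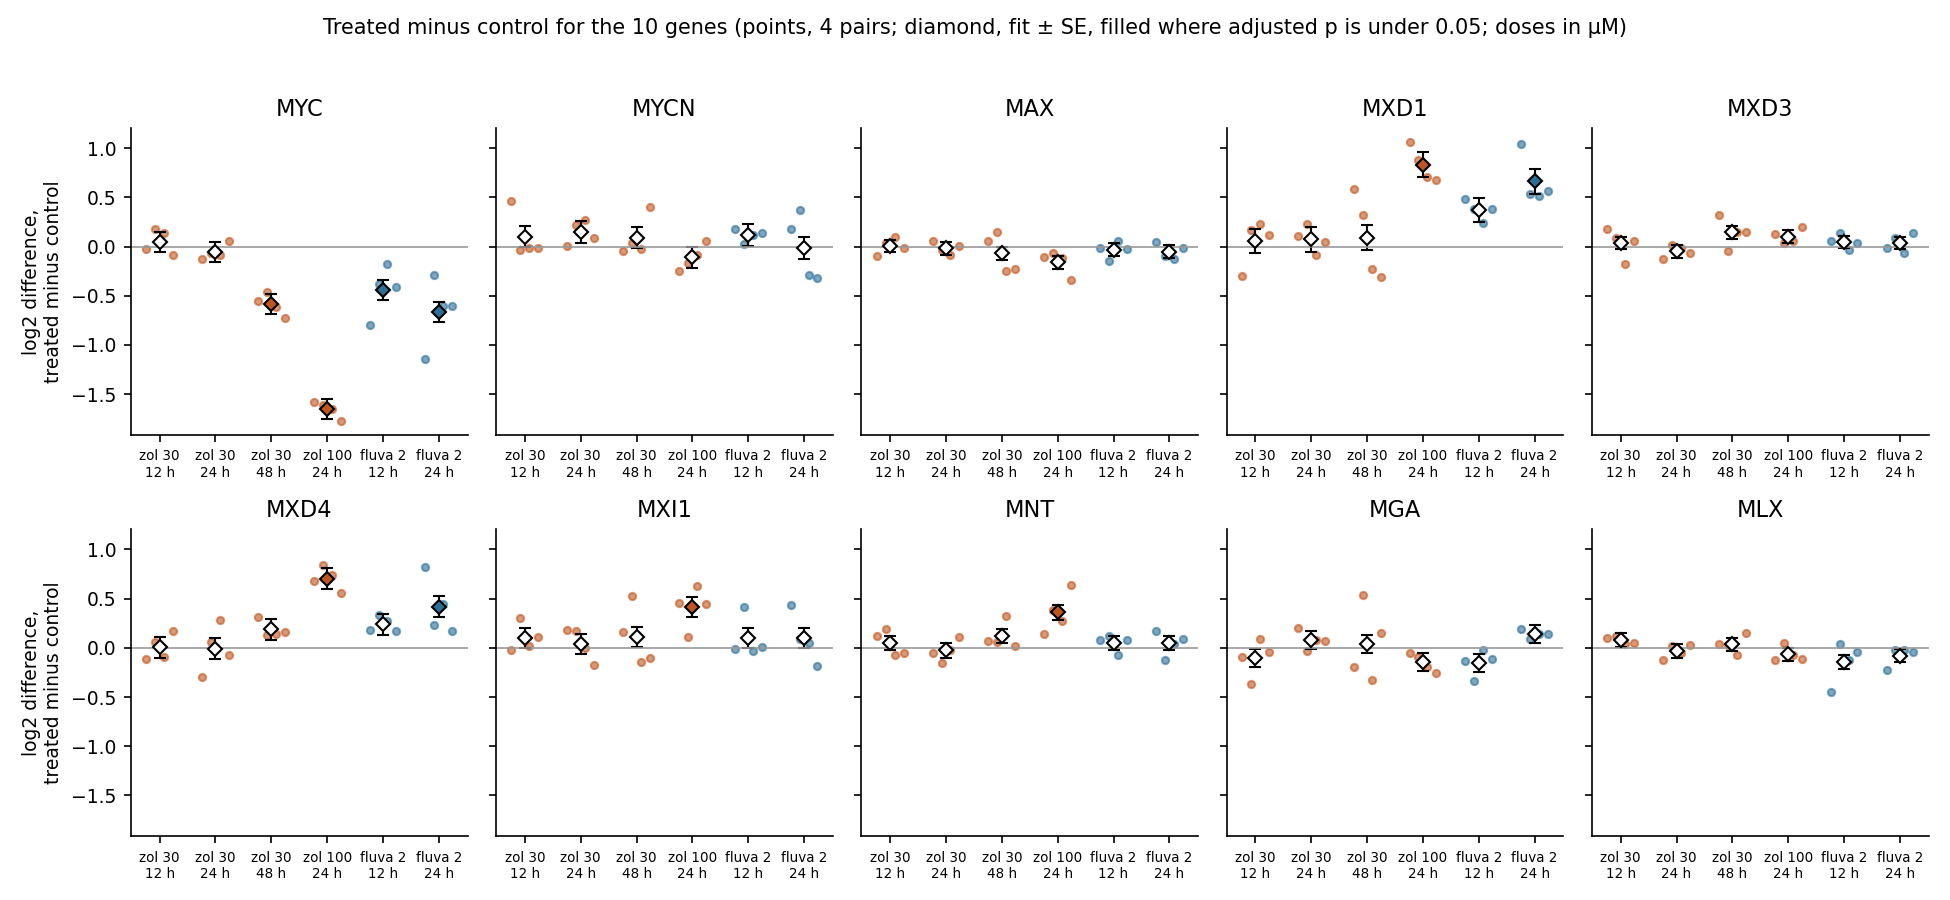
Difference between treated and mock-treated cells (vertical axis, log2) for each of the 10 genes in 6 treatments (horizontal axis, doses in µM). Small points are the 4 replicate pairs, diamonds the fitted difference ± SE, filled where the adjusted p was under 0.05. MYC is the only gene with filled diamonds below 0, down to -1.65, and MXD1, MXD4, MXI1 and MNT have filled diamonds above 0 with 100 µM zoledronate.

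MXD1, a MAX-binding repressor that rises as many cell types differentiate, rose after 24 h of fluvastatin and with 100 µM zoledronate. In lot I its mock-treated values at 24 h were 7.61, 7.91, 8.14 and 8.23 and its fluvastatin values 8.65, 8.45, 8.65 and 8.79, with no overlap, as upward in 849 of 18417 genes. In lot II its mock-treated values at 24 h were 7.59, 7.53, 7.54 and 7.76 and its values with 100 µM zoledronate 8.65, 8.41, 8.25 and 8.44, again with no overlap, as upward in 2864 genes. The rise was 0.66 ± 0.13 with fluvastatin (adjusted p = 0.00183) and 0.83 ± 0.13 with 100 µM zoledronate (adjusted p = 1.32e-05), each in 4 of 4 pairs. The fluvastatin call was lost without replicate 1 (0.54, adjusted p = 0.0523) and with only the arrays compared (0.0647).

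After 12 h of fluvastatin MXD1 had a difference of 0.37 ± 0.13 that was above 0 in 4 of 4 pairs and did not pass (adjusted p = 0.167). With 30 µM zoledronate its differences were 0.06, 0.07 and 0.09 at 12 h, 24 h and 48 h. At 48 h the mock-treated values were 7.67, 8.31, 8.55 and 8.37 and the treated ones 8.25, 8.63, 8.32 and 8.06. Replicate 1 of the mock-treated cells was thus apart from the other 3, and the pairs went in both directions, from -0.31 to 0.58. The mock-treated cells of lot II were themselves higher in MXD1 at 48 h than at 24 h by 0.62 ± 0.16, which did not pass (adjusted p = 0.0826), and passed without replicate 1 (0.00649) and with a replicate block (0.0358). The comparison of 48 h with 24 h in mock-treated cells called 0.912% of all genes and 0 of the 10. The count of all genes was 168, 690 with the replicate block, 809 without replicate 1 and 53 to 63 without another replicate.

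MXD4, another MAX-binding repressor, rose in the same treatments. At 24 h it gave 7.66, 7.56, 7.47 and 7.65 in mock-treated cells of lot I and 8.49, 7.79, 7.91 and 7.82 with fluvastatin. It gave 7.36, 7.23, 7.27 and 7.28 in mock-treated cells of lot II and 8.03, 8.07, 8.01 and 7.84 with 100 µM zoledronate. Neither pair of groups overlapped, which held upward for 849 of all genes with fluvastatin and 2864 with 100 µM, and the fluvastatin array of replicate 1 stood apart above the other 3. The rise was 0.42 ± 0.11 with fluvastatin (adjusted p = 0.0134) and 0.70 ± 0.11 with 100 µM zoledronate (adjusted p = 1.33e-05). Without replicate 1 the fluvastatin difference was 0.28 and did not pass (adjusted p = 0.0729), nor did it with only the arrays compared (0.113). With 30 µM zoledronate for 48 h MXD4 was higher in 4 of 4 pairs by 0.19 ± 0.11, which did not pass (adjusted p = 0.324). After 12 h of fluvastatin the mean of MXD4 was 7.60, against 7.36 in mock-treated cells, which did not pass either. All fluvastatin arrays of 12 h lay above all mock-treated ones in MXD4, as in 451 of 18417 genes.

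**Figure D3:**
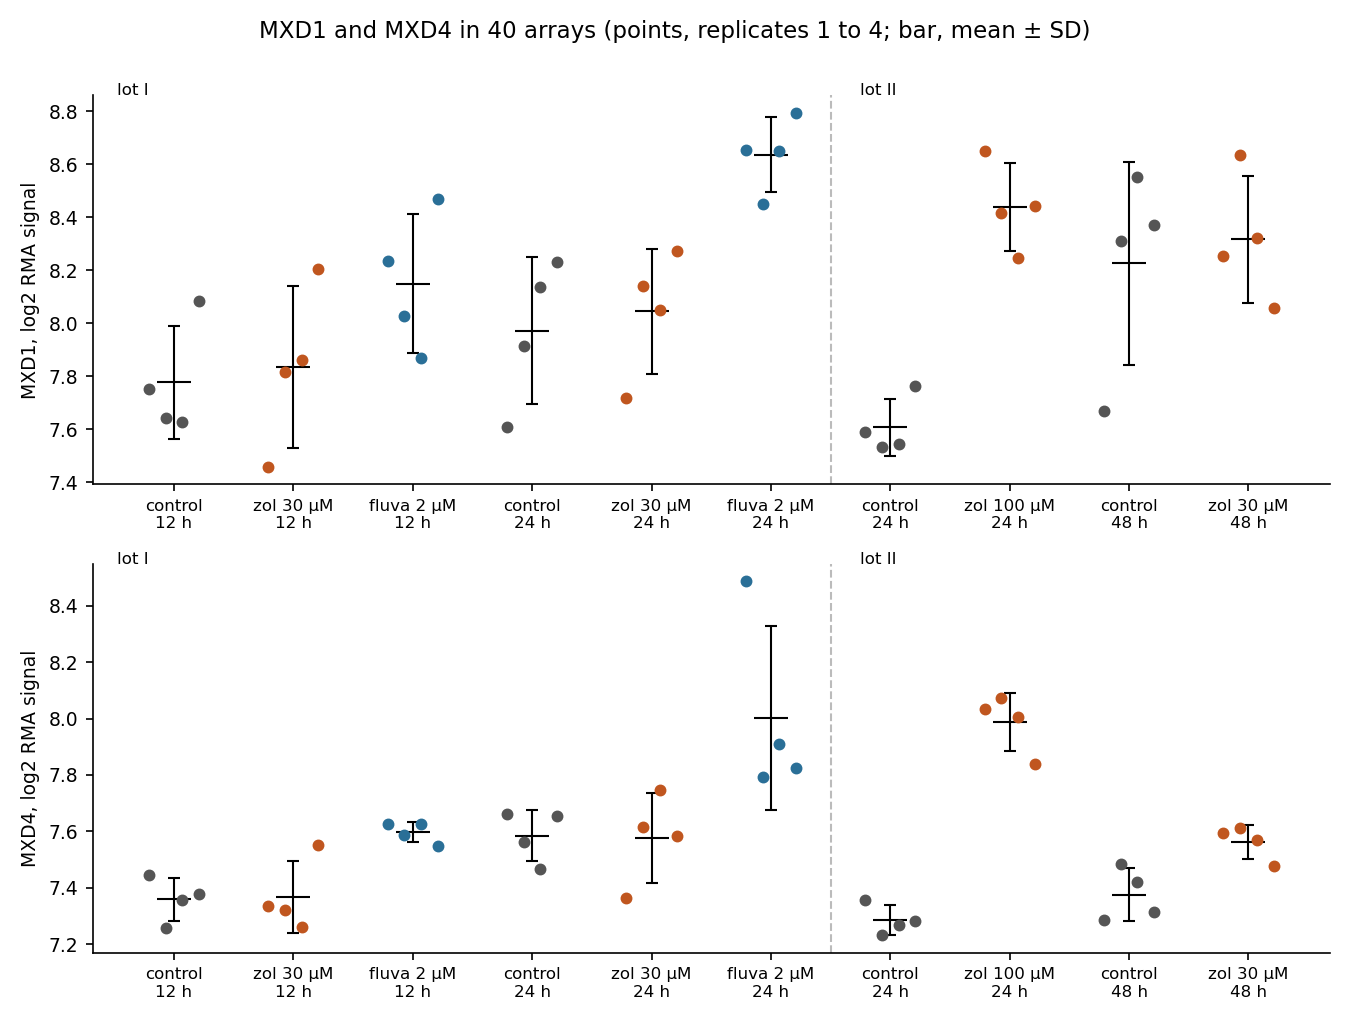
MXD1 (upper panel) and MXD4 (lower panel) in each of the 40 arrays, as log2 signal (vertical axis) by treatment and time (horizontal axis). Points are replicates 1 to 4 from left to right and bars the mean ± SD of 4 arrays. In both panels the 4 arrays with 100 µM zoledronate and the 4 with fluvastatin at 24 h lie above the mock-treated arrays of their lot and time, and replicate 1 sets the top of MXD4 with fluvastatin at 8.49.

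MXI1, whose protein is also called MXD2, and MNT, which pairs with MAX in resting and growing cells alike, rose only with 100 µM zoledronate among the 6 treatments. MXI1 went from 7.53, 7.78, 7.68 and 7.80 to 7.99, 7.90, 8.31 and 8.25, a rise of 0.41 ± 0.10 (adjusted p = 0.00254). MNT went from 7.19, 7.09, 7.19 and 6.96 to 7.33, 7.47, 7.46 and 7.61, a rise of 0.36 ± 0.07 (adjusted p = 0.000399). In both genes all treated arrays were above all mock-treated arrays, as they were in 2864 of the 18417 genes. Their other differences from mock-treated cells ran from 0.04 to 0.11 for MXI1 and from -0.03 to 0.12 for MNT.

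The differences between treatments were tested as such for these repressors. Compared with 30 µM at 24 h, 100 µM zoledronate had a higher effect on MXD1 by 0.76 (adjusted p = 0.00329), on MXD4 by 0.71 (0.00135) and on MNT by 0.39 (0.00886), the last lost without the replicate block (0.0833) and without replicate 2 (0.0721). For MXI1 the difference of 0.37 did not pass (0.0737) and did with the dimmest genes removed (0.046) and without replicate 2 (0.51, 0.04). In this contrast 4 of the 10 genes passed, MYC included, against 20.3% of all genes. Fluvastatin cells at 24 h were above 30 µM zoledronate cells in MXD1 by 0.59 (adjusted p = 0.00579) and in MXD4 by 0.43 (0.0163), both lost without replicate 1 (0.123 and 0.314) and with only the arrays compared (0.11 and 0.236). Against fluvastatin at 24 h, the effect of 100 µM zoledronate passed for MYC alone (1 of 10, 5.78% of all genes). MNT differed by 0.31 (95% interval 0.10 to 0.53, adjusted p = 0.0732) and passed with the dimmest genes removed (0.0411) and without replicate 1 (0.43, 0.0239). MXD4 differed by 0.28 (-0.03 to 0.60) and passed without replicate 1 (0.43, 0.0239), and MXD1 differed by 0.17 (-0.20 to 0.54).

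MXD3, the MXD member known for its expression in dividing cells, had differences from -0.05 to 0.14 and none passed. MGA, a very large MAX partner that recruits a polycomb-related repressor complex, had differences from -0.15 to 0.14, and MLX from -0.14 to 0.08, with none past the threshold. Between mock-treated cells of the lots at 24 h, MXD4 was lower in lot II by 0.30 ± 0.08 (adjusted p = 0.0111, lost without replicate 2 at 0.0654) and MGA higher by 0.34 ± 0.10 (adjusted p = 0.0329, lost with median centring and without replicate 1, 2 or 3, up to 0.135), which is 2 of 10 against 17.1% of all genes. MAX was lower in lot II by a difference of -0.26 that did not pass (adjusted p = 0.0665) and passed in 4 of 9 alternatives (0.0339 to 0.0457), with only the arrays compared, a new quantile normalization, median centring and the dimmest genes removed. The treated effects of these genes were taken within a lot.

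Promoter sequence was read for the network genes because MYC and its relatives act through E-boxes and 4 of these genes rose together with 100 µM zoledronate. In RefSeq (assembly GRCh38.p14) windows of 250 bases before to 50 bases from each start site, 9 of the 10 genes had an entry, with 14 windows. The motif searched was CACGTG, which is its own reverse complement, so that both strands are covered. It was in 2548 of 35116 windows of all genes (7.26%) and in 3 of the 14 (21.4%), namely 1 each of MXD4, MNT and MLX. MXI1, which also rose with 100 µM zoledronate, was not among the genes with a motif. The windows of 3 of the 4 repressors that rose are given here 5′ to 3′ on the gene's strand, with the E-box in capitals. That of MXD1 is chr2:69914859-69915158 on the plus strand and holds none, that of MXD4 is chr4:2262060-2262359 on the minus strand with the first base of the motif at -238 from the start site, and that of MNT is chr17:2401011-2401310 on the minus strand with the motif at -193. A match is a description of the letters and shows no binding.
MXD1: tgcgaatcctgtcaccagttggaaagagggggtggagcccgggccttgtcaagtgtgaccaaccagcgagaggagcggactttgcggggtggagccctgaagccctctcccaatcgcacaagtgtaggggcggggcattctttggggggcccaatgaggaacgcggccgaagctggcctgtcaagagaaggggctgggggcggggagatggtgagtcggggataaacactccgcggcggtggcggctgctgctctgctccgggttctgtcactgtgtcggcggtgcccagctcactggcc
MXD4: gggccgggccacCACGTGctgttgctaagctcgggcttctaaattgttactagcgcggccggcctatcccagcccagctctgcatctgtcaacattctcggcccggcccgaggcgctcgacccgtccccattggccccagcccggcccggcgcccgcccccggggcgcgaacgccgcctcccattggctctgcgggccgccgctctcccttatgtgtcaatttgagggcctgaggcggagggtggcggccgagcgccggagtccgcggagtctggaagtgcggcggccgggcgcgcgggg
MNT: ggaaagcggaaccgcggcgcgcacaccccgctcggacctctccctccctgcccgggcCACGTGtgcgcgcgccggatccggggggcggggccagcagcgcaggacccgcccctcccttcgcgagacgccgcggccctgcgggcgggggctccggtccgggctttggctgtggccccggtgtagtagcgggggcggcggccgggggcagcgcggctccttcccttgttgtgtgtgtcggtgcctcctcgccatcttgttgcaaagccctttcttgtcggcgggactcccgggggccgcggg

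Genes that MYC is known to activate had, as a list, lower median differences in the treatments in which MYC fell than in the others. This did not extend to the single pairs at 48 h, given below. Of 70 listed genes 62 were measured, and with 100 µM zoledronate 54 fell, 2 rose and 6 did not pass, against 16.6% of all genes that fell and 15.3% that rose. Their median difference was -0.55, with 0.01 over all genes. DKC1, the pseudouridine synthase dyskerin, fell by 1.09 ± 0.07 (adjusted p = 1.87e-10), WDR43, a factor of small ribosomal subunit assembly, by 0.94 ± 0.07, PRMT3, which methylates a ribosomal protein, by 0.90 ± 0.07, and ODC1, the first enzyme of polyamine synthesis, by 0.69 ± 0.05. The 2 that rose were HK2, a hexokinase of glycolysis, by 0.50 ± 0.08 (adjusted p = 1.6e-05) and MAP3K6, a kinase, by 0.28 ± 0.10 (adjusted p = 0.0408). Only 1 rose without any 1 of the replicates, without the replicate block or with median centring.

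After 24 h of fluvastatin 29 of the 62 fell and 0 rose, with a median of -0.25 beside -0.01 over all genes, against 3.77% and 6.71% of all genes. MRTO4, which matures the large ribosomal subunit, fell by 0.58 ± 0.10 (adjusted p = 0.000871), RRP9, a component of the U3 nucleolar particle, by 0.44 ± 0.08, ODC1 by 0.36 ± 0.05 and GRWD1, a ribosomal assembly factor, by 0.35 ± 0.07. Without replicate 1 the count dropped to 3, without the replicate block to 13, and with only the arrays compared to 0. In the replicate pairs the median of the 62 was -0.42, -0.12, -0.21 and -0.18, while MYC itself differed by -1.14, -0.29, -0.60 and -0.61. Replicate 1 was lowest in both.

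After 12 h of fluvastatin 3 of the 62 fell (RCL1, PPRC1 and WDR43, by 0.31 to 0.48) and 0 rose, against 0.527% and 0.348% of all genes. The median was -0.14 beside 0.01 over all genes, and 59 of the 62 were below 0. None of these 3 calls was kept without any 1 replicate, without the block or with only the arrays compared, where the count was 0.

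After 48 h of 30 µM zoledronate 21 of the 62 fell and 0 rose, against 4.43% and 3.16% of all genes. The median was -0.21 beside 0.01 over all genes. In the pairs the median of the 62 was -0.24, -0.29, -0.14 and -0.07 while MYC differed by -0.55, -0.46, -0.61 and -0.72. The order of the pairs was thus reversed here, with the median nearest 0 in replicate 4, where MYC was lowest. This order is a description of 4 single pairs. Treated and mock-treated arrays of the same number deviated together in only 2 of them (r from -0.30 to 0.55). ODC1 fell by 0.42 ± 0.05 (adjusted p = 5.77e-05), PRMT3 by 0.41 ± 0.07, DKC1 by 0.36 ± 0.07 and WDR43 by 0.36 ± 0.07. The count was 6 without the replicate block, 6 without replicate 1 and 0 with only the arrays compared. After 12 h and 24 h of 30 µM zoledronate the medians were 0.00 and -0.02 and 0 of the 62 passed.

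**Figure D4:**
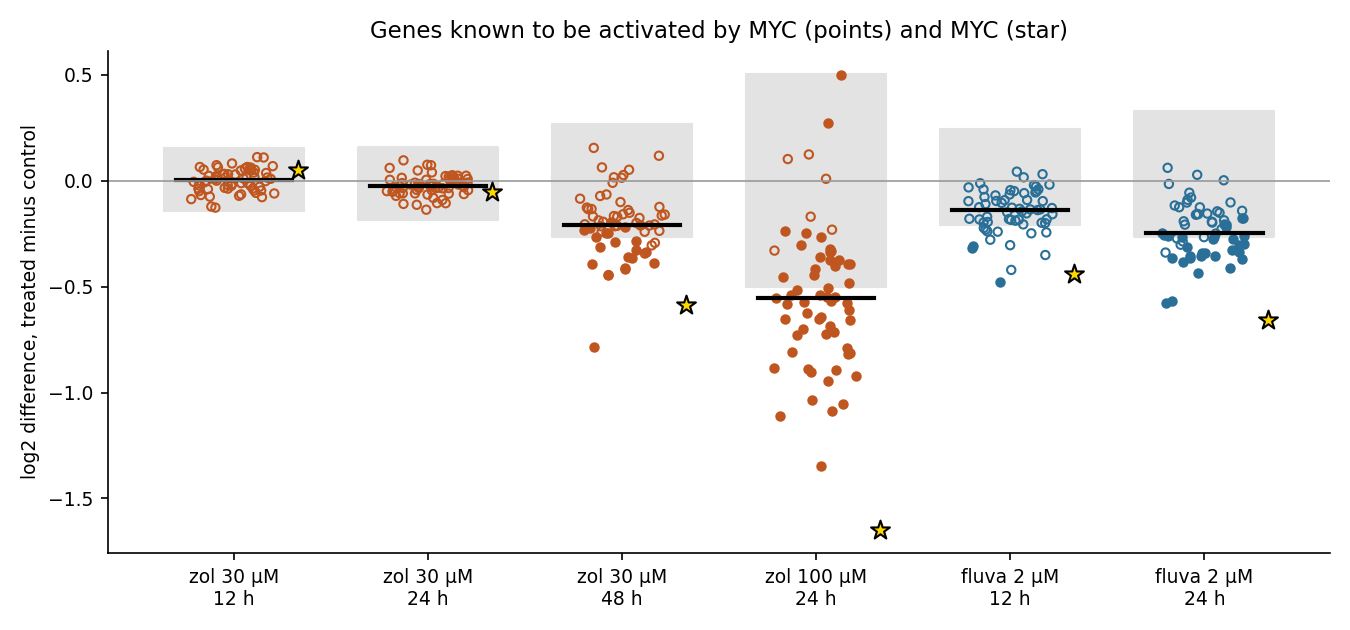
Difference between treated and mock-treated cells (vertical axis, log2) for the 62 measured genes known to be activated by MYC, in 6 treatments (horizontal axis). Points are genes, filled where the adjusted p was under 0.05, black bars their medians, stars MYC, and grey boxes the range of all genes from percentile 5 to 95. The medians are 0.00 and -0.02 with 30 µM zoledronate at 12 h and 24 h and -0.55 with 100 µM.

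In the promoter windows of the same list the E-box was found in 27 of 64 windows (42.2%, of 52 genes with an entry), against 7.26% of all windows, and among the genes that fell with 100 µM zoledronate in 25 of 52 (48.1%). The list was drawn up from known MYC targets, so that this share describes the list and not the treatment. The windows of ODC1 and WDR43, which fell with fluvastatin at 24 h, 30 µM zoledronate at 48 h and 100 µM, are shown in the same way. ODC1 is at chr2:10447963-10448262 on the minus strand, its second start site, with motifs at -29 and 6, and WDR43 at chr2:28894417-28894716 on the plus strand with a motif at 4. The window of DKC1 held none.
ODC1: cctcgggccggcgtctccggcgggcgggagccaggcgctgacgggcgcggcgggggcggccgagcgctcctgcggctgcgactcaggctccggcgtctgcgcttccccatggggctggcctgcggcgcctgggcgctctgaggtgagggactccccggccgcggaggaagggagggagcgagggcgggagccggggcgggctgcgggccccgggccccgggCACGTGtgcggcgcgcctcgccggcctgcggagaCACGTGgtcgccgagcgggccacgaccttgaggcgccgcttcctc
WDR43: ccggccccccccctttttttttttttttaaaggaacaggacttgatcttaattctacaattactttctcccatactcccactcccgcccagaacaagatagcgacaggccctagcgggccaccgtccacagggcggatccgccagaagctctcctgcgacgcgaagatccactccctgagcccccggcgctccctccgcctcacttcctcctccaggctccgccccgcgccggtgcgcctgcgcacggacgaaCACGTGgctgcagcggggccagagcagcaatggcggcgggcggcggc

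The calls of single list genes outside 100 µM zoledronate rest on the spread shared by all groups: with only the arrays compared 14 and 2 of all genes passed after 12 h and 24 h of fluvastatin and 0 after 48 h of 30 µM zoledronate. Genes known to be repressed by MYC included more that rose than fell with 100 µM zoledronate. Of 13 listed, 11 were measured, and 6 rose, against 15.3% of all genes, and 2 fell, near the 16.6% of all genes, with a median of 0.27 beside 0.01. NDRG1, a stress- and differentiation-linked gene, rose by 3.18 ± 0.26 (adjusted p = 3.67e-09), the kinase inhibitors CDKN1B and CDKN1A by 0.44 ± 0.08 and 0.51 ± 0.10, and the growth factor receptor PDGFRB by 0.48 ± 0.11. THBS1, the matrix protein thrombospondin, fell by 1.77 ± 0.20 and GADD45A, a growth arrest gene, by 0.54 ± 0.08, in the direction opposite to the list's name. After 24 h of fluvastatin 3 rose (NDRG1 by 1.28, NDRG2 by 0.44 and CDKN1A by 0.35) and 0 fell, against 6.71% and 3.77% of all genes. The median was 0.02 beside -0.01 over all genes, and 5 of the 11 were below 0. After 48 h of 30 µM zoledronate NDRG1 rose by 1.54 and GADD45A fell by 0.40, where 3.16% of all genes rose and 4.43% fell. The median there was 0.01, as over all genes, and 5 of the 11 were below 0.

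Relatives of the network were read from a list of 8 genes that share its DNA-binding fold. With 100 µM zoledronate 2 rose, 2 fell and 4 did not pass, against 15.3% of all genes that rose and 16.6% that fell. The median was 0.14 beside 0.01 over all genes. After 12 h and 24 h of fluvastatin and 48 h of 30 µM zoledronate 1 of the 8 fell, against 0.527%, 3.77% and 4.43% of all genes, and 0 rose. MITF, the melanocyte and osteoclast factor, fell in every treatment in which MYC fell, by 0.38 ± 0.09 and 0.28 ± 0.09 after 12 h and 24 h of fluvastatin, by 0.42 ± 0.09 after 48 h of 30 µM zoledronate and by 0.65 ± 0.09 with 100 µM (adjusted p = 0.0381, 0.0407, 0.00465 and 3.39e-06). With 100 µM zoledronate the E-box factors USF1 and USF2 rose by 0.32 ± 0.06 and 0.34 ± 0.06, and MLXIP, the partner of MLX, fell by 0.32 ± 0.07. Of 3 targets of MLX dimers, TXNIP, an inhibitor of thioredoxin and glucose uptake, rose by 0.79 ± 0.17 with 100 µM (adjusted p = 0.000594) and the others, ARRDC4 and PKLR, did not pass in any treatment.

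Coactivators and other partners of MYC were mostly lower with 100 µM zoledronate. Of 15 measured 9 fell and 2 rose, against 16.6% and 15.3% of all genes, with a median of -0.18 beside 0.01 over all genes. RUVBL1 and RUVBL2, paired ATPases of chromatin remodelling complexes, fell by 0.63 ± 0.06 and 0.31 ± 0.05, WDR5, which anchors MYC to chromatin, by 0.50 ± 0.08 and EP400, a remodelling ATPase, by 0.33 ± 0.05. ZBTB17, through which MYC represses genes, rose by 0.30 ± 0.06 and the acetyltransferase KAT5 by 0.19 ± 0.06. After 24 h of fluvastatin WDR5 alone of the 15 passed, with a fall of 0.32. There 3.77% of all genes fell and 6.71% rose, and the median of the list was -0.04 beside -0.01 over all genes. After 48 h of 30 µM zoledronate RUVBL1 and RUVBL2 fell by 0.40 and 0.21 and KAT2A rose by 0.19. At 48 h 4.43% of all genes fell and 3.16% rose, and the median of the list was -0.11 beside 0.01.

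With 100 µM zoledronate the corepressors of MXD proteins and MNT had a share of changed genes near the background. Of 8 measured 1 rose and 1 fell, against 15.3% and 16.6% of all genes, and the median was 0.04. After 24 h of fluvastatin 1 of 8 rose and 0 fell, against 6.71% and 3.77% of all genes. After 48 h of 30 µM zoledronate 1 rose and 1 fell, against 3.16% and 4.43%. HDAC1, a histone deacetylase, rose by 0.32 ± 0.06 after 24 h of fluvastatin, 0.35 ± 0.06 after 48 h of 30 µM zoledronate and 0.55 ± 0.06 with 100 µM, whereas HDAC2 fell by 0.24 ± 0.07 and 0.41 ± 0.07 in the latter 2. SIN3A and SIN3B, the scaffolds that MXD proteins bind, did not pass in any treatment. Of 8 measured partners of MGA, 6 fell and 1 rose with 100 µM (median -0.31), against 16.6% and 15.3% of all genes, led by E2F6 and PCGF6, which each fell by 0.57, and CBX3 and L3MBTL2, which fell by 0.38 and 0.25, while RING1 rose by 0.22. After 48 h of 30 µM E2F6 fell by 0.18 ± 0.05 (adjusted p = 0.0467), as 1 of 8, where 4.43% of all genes fell. CBX3 is also on the list of genes activated by MYC.

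Genes that set the stability of MYC protein went both ways with 100 µM zoledronate, where 5 of 17 rose and 6 fell, against 15.3% and 16.6% of all genes, with a median of -0.05. The ubiquitin ligase subunit SKP2 fell by 0.91 ± 0.18, USP36, a nucleolar deubiquitinase, by 0.46 ± 0.08 and SET, an inhibitor of the phosphatase PP2A, by 0.41 ± 0.06, while PPP2R5A, a PP2A subunit, rose by 0.27 ± 0.07 and the kinase PIM1 by 0.36 ± 0.10. After 48 h of 30 µM 3 of 17 fell and 0 rose, against 4.43% and 3.16% of all genes. They were the mitotic kinases PLK1 and AURKA, by 0.79 ± 0.18 and 0.58 ± 0.14, and SET, by 0.19. After 24 h of fluvastatin 1 of 17 rose and 0 fell, against 6.71% and 3.77% of all genes. It was GSK3B, which marks MYC for degradation, with a rise of 0.28. PLK1 is on the list of genes activated by MYC as well.

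Among 18 regulators upstream of MYC transcription, 5 rose and 6 fell with 100 µM zoledronate, against 15.3% and 16.6% of all genes, with a median of -0.10. LEF1, a nuclear factor of the Wnt pathway, fell by 0.98 ± 0.11 and CNBP, which binds the MYC promoter, by 0.36 ± 0.05, while WWTR1, the Hippo pathway coactivator TAZ, rose by 0.79 ± 0.11 and TCF7L2, another Wnt factor, by 0.56 ± 0.08. After 24 h of fluvastatin 3 rose and 2 fell, against 6.71% and 3.77% of all genes, among them WWTR1 with a rise of 0.56 and LEF1 with a fall of 0.49. After 12 h of fluvastatin FUBP1, which binds an element upstream of MYC, fell by 0.31 (adjusted p = 0.0488), and after 48 h of 30 µM zoledronate CNBP fell by 0.18. Each was 1 of 18, where 0.527% of all genes fell at 12 h and 4.43% at 48 h.

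**Figure D5:**
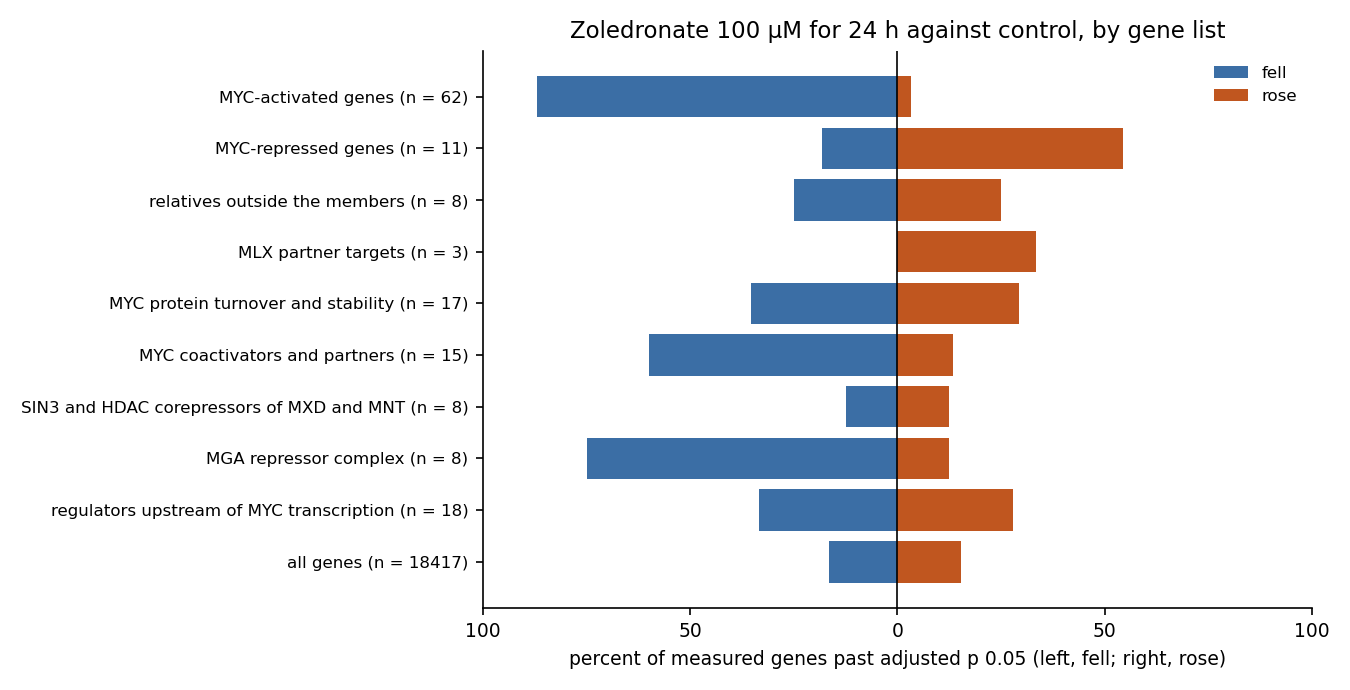
Share of the measured genes of each list that fell (left) or rose (right) with 100 µM zoledronate at 24 h (horizontal axis, percent with adjusted p under 0.05), with all 18417 genes in the last bar. Of the genes activated by MYC 54 of 62 fell, and of its coactivators and partners 9 of 15, against 16.6% of all genes.

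Likeness to MYC was measured as Pearson's r over the 24 paired differences (4 in each of 6 treatments), as a description, since the differences of lot I share mock-treated arrays and the group means carry much of it. Of 18416 other genes the 5 with the highest r were ERCC2 (0.98), the DNA repair helicase of TFIIH, POLR1E (0.98), a subunit of RNA polymerase I, DKC1 (0.98), TNFRSF12A (0.97), the receptor of TWEAK, and CRIM1 (0.97), a membrane protein that binds BMPs. With 100 µM zoledronate the mean difference was -1.46 for ERCC2, -1.03 for POLR1E and -1.13 for CRIM1. The 5 lowest were ESYT2 (-0.96), NET1 (-0.94), KLF3 (-0.94), P4HA2 (-0.94) and ZMIZ1 (-0.93), of which KLF3, a repressor of the Kruppel-like family, had a mean difference of 1.79 with 100 µM.

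Within the network the same measure gave -0.84 for MXD4, -0.71 for MNT, -0.69 for MXD1 and -0.49 for MXI1, and 0.47 for MAX, 0.36 for MLX, 0.34 for MYCN, 0.15 for MGA and -0.32 for MXD3. Over the 16 differences of lot I alone it was -0.83 for MXD1, -0.75 for MXD4, -0.33 for MNT and -0.22 for MXI1, and over the 8 of lot II -0.71, -0.91, -0.67 and -0.48. The values of MXD1 and MXD4 were thus well below 0 in both lots, and those of MNT and MXI1 were nearer 0 in lot I. Among the 18416 other genes, ranked from the highest r over both lots, MXD4 was at rank 18159 and MNT at 17514. MXD1 was at rank 17427, MXI1 at 16179 and MAX at 2858. Other genes thus had a lower r than each of MXD4, MNT, MXD1 and MXI1, the fewest for MXD4 and the most for MXI1. Such values were therefore not particular to these repressors.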

How the data were processed

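For MDA-MB-231 RNA, 40 arrays (Affymetrix Human Gene 1.0 ST) were used. The authors deposited log2 signals that they computed by RMA with Affymetrix Power Tools 1.10.2, per the submitters' processing notes, which also name limma. The build, and whether RMA ran on both lots together, is not given in the sources used here. Probe sets were named from the platform annotation. Of 33297 probe sets, 19460 had 1 symbol, 1754 several and 12083 none here, and 19429 of the first matched RefSeq (GRCh38.p14) by gene number. For 769 genes with several probe sets the brightest was kept, which left 18417 genes, and no dim gene was removed.

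The fit (limma 3.58.1 in R 4.3.3, 18 residual degrees of freedom) had 16 blocks, 1 per lot, time and replicate, and 6 treated effects over 40 arrays, since the design text pairs the cells by day. Mock-treated cells were compared over 16 arrays without a block (12 degrees). Benjamini-Hochberg adjustment ran over all genes, two-sided, with a threshold of 0.05. Same-numbered arrays deviated together in lot I (r from 0.17 to 0.60 in every pair), in 2 of 4 pairs at 48 h (-0.30 to 0.55) and in 1 of 4 with 100 µM (-0.09 to 0.26), so that in lot II the pairing rests on the design text. The fit was tested on simulated data first.

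The 10 genes, the 9 gene lists and the alternatives were chosen with earlier results of these data known. From each list up to 4 genes with the smallest p past the threshold were named per comparison and up to 2 against the list's direction, together with the 5 genes most and the 5 least like MYC. Named beyond this rule, with results in view, were CDKN1A and PDGFRB with 100 µM zoledronate, and ARRDC4, PKLR, SIN3A and SIN3B. The fit was repeated with group means in place of blocks, on just the groups compared, after a new quantile normalization or median centring, without the dimmest genes (12278 left), with probe sets averaged and without each replicate. The number of arrays limits the precision.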

Additional observations from a re-analysis of the deposited data

Results flagged for a closer look

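Of 100 groups of 4 arrays (10 genes in 10 groups), 5 had 1 array far from the other 3 by Dixon's criterion, which chance gives in about 1 of 20 groups. MXD4 was 8.49 in fluvastatin replicate 1 at 24 h, with the others at 7.79 to 7.91. MXI1 was 7.44 in fluvastatin replicate 3 at 12 h, below the others, and 7.86 in 30 µM zoledronate replicate 1 at 24 h, above them. MYCN was 4.91 in mock-treated replicate 4 of lot I at 24 h and 4.92 in 100 µM zoledronate replicate 2, both above the others, and its mean over all arrays was at percentile 18.9 of genes.

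Effects that differed between treatments by a test of the difference itself in limma were the following. For MYC the difference was -0.49 between fluvastatin and 30 µM zoledronate at 12 h, -0.61 at 24 h, -1.60 between 100 µM and 30 µM zoledronate at 24 h and -0.99 between 100 µM zoledronate and fluvastatin at 24 h. For MXD1 it was 0.59 between fluvastatin and 30 µM zoledronate at 24 h and 0.76 between 100 µM and 30 µM zoledronate. For MXD4 the same 2 differences were 0.43 and 0.71. For MNT the difference between 100 µM and 30 µM zoledronate was 0.39.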

How the results depend on the processing

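Differences from mock-treated cells with 100 µM zoledronate kept their calls in MYC, MXD1, MXD4, MXI1 and MNT under all 10 alternatives. Of 1475 values of single genes over all comparisons and alternatives 77 changed sign, each past the threshold in neither fit; 5 of these belong to values printed singly and are given here, and the cause was not tested. With median centring MYC in mock-treated cells of lot I at 24 h against 12 h was -0.013.

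Without the replicate block MYC did not pass after 12 h of fluvastatin (-0.44, adjusted p = 0.0943) or against 30 µM zoledronate at 12 h (-0.49, 0.0776), and 0 of the 10 genes passed in either. With a replicate block on mock-treated cells 1 of the 10 passed at 48 h against 24 h (MXD1, 0.0358). Beside the main counts of genes past the threshold, the fit without the block gave 20 (161) after 12 h and 663 (1930) after 24 h of fluvastatin, 349 (1397) at 48 h, 14 (136) and 367 (1332) between the agents at 12 h and 24 h, 0 (75) for 48 h against 24 h, 2065 (3746) for 100 µM against 30 µM and 248 (1065) for 100 µM against fluvastatin.

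With only the arrays compared MYC kept its differences and did not pass after fluvastatin (-0.44 at 12 h, -0.66 at 24 h), at 48 h (-0.59) or between the agents (-0.49 and -0.61), with adjusted p from 0.0866 to 0.172. In these 5 comparisons 0 of the 10 genes and 14, 2, 0, 13 and 0 of all genes passed. With the dimmest genes removed MYC passed for 48 h against 24 h (-0.53, 0.0492), which made 1 of 10, and 2 of 10 passed for 100 µM zoledronate against fluvastatin (MYC and MNT); 281 genes passed after 12 h of fluvastatin, 246 between the agents at 12 h and 259 for 48 h against 24 h.

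Without each replicate in turn, MYC after 12 h of fluvastatin ran from -0.53 to -0.32 and against 30 µM zoledronate at 12 h from -0.55 to -0.40, past the threshold in none, with 0 of the 10 genes each time. In mock-treated cells MYC ran from -0.037 to 0.022 for 24 h against 12 h and from -0.14 to 0.024 between lots. MXD1 with 30 µM zoledronate ran from -0.00070 to 0.17 at 12 h and from -0.073 to 0.23 at 48 h. The number of the 10 genes past the threshold ran from 1 to 3 after 24 h of fluvastatin, 1 to 3 between the agents at 24 h, 1 to 3 for 100 µM zoledronate against fluvastatin, 0 to 1 for mock-treated cells at 48 h against 24 h and 0 to 2 between lots. Counts of all genes ran from 0 to 51 and 299 to 1906 after 12 h and 24 h of fluvastatin and from 485 to 1672 at 48 h.

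Median centring moved the split of higher and lower calls from 64 and 97 to 44 and 123 after 12 h of fluvastatin, from 582 and 815 to 362 and 898 at 48 h, from 52 and 84 to 29 and 92 between the agents at 12 h, and from 1313 and 1845 to 884 and 2599 between lots.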
